A study of Homo sapiens with 4 samples.

Results

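The genes described here are 9 tumour suppressors of colorectal cancer, grouped as prone to promoter methylation: APC, SMAD4, RASSF1, RASSF2, RUNX3, SOCS1, MGMT, TIMP2 and GATA5. They were named by symbol, and every probe set that the platform annotation ties to a single one of these symbols was taken. That gave 25 probe sets of 54613 that are not array controls, and 9 genes of 19775 with such a probe set. The arrays compare HCT116 cells given TET1 siRNA (2 arrays) with HCT116 cells given control siRNA (2 arrays). HCT116 is an established line from a human colorectal carcinoma. Both groups were grown in the same medium and received their siRNA with the same lipid reagent. The design text describes the 2 samples of a group as biological duplicates. The labels name a single TET1 siRNA group, so an effect of TET1 loss and an effect of the siRNA itself cannot be told apart.

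TET1 oxidises methylated cytosine and so opens the way to its removal from DNA. Dense methylation of a CpG-rich promoter is a known route to silencing of tumour suppressors in colorectal cancer, though SMAD4 is better known for loss by deletion or mutation. The 9 genes act in different pathways. APC holds beta-catenin in the complex that marks it for degradation, SMAD4 carries TGF-beta and BMP signals to DNA, and RASSF1 and RASSF2 are Ras-association scaffolds that bind MST kinases. RUNX3 and GATA5 are transcription factors, SOCS1 restrains JAK kinases, MGMT strips methyl groups from damaged guanine, and TIMP2 inhibits matrix metalloproteinases. DNA methylation was not analysed here, and the values are RNA signals only.

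The promoter sequences show how much CpG, the dinucleotide that is methylated, lies before these genes. The windows are the 250 bases before a gene start in RefSeq (GRCh38.p14), read 5′ to 3′ on the gene's strand, and the capitals mark each CG, which reads the same on both strands. They are shown for the genes with a window whose RNA changed (APC with its 2 starts, SMAD4, RASSF2). MGMT, the window with most CG, is shown too, though its RNA difference did not pass the test. TIMP2, whose RNA also changed, and GATA5 had no window in the sequences used and are named only.
APC upstream start, chr5:112707248-112707497, plus strand: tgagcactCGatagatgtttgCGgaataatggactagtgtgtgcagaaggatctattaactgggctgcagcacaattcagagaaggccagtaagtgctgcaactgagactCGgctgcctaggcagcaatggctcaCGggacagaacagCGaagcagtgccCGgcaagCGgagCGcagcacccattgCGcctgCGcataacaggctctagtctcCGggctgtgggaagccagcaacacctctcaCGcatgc
APC downstream start, chr5:112737635-112737884, plus strand: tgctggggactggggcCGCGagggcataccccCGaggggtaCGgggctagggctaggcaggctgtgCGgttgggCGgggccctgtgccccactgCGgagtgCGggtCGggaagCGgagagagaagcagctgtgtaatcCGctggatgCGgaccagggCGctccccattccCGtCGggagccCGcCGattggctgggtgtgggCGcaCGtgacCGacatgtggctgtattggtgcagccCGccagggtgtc
SMAD4, chr18:51029963-51030212, plus strand: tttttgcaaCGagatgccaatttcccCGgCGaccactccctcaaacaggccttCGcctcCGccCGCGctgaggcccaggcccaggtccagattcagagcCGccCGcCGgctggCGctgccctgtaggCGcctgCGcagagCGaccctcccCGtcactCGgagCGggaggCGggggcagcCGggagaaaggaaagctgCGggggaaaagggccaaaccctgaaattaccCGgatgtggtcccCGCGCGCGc
RASSF2, chr20:4815148-4815397, minus strand: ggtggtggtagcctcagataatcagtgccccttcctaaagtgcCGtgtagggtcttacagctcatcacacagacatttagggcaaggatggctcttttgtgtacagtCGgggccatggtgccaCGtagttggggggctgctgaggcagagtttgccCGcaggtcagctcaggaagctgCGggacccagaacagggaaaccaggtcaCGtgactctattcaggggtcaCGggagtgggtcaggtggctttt
MGMT, chr10:129466991-129467240, plus strand: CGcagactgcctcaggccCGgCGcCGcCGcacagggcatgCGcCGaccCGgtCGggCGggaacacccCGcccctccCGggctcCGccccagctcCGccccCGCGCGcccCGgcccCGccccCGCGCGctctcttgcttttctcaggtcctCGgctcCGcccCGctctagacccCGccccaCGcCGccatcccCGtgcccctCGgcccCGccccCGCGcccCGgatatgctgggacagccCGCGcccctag

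The promoters of these genes were mostly CpG-rich, but not equally so. MGMT had 36 CG in its window, more than 95.2% of the 35114 windows in the RefSeq table. RUNX3 had 33 CG at its downstream start and 13 at its upstream one. SOCS1 had 27, SMAD4 and RASSF1 25 each, and RASSF2 the fewest, 7. APC had 21 CG at the downstream start, the one known as promoter 1A, whose methylation in colorectal tumours is well described, and 12 at the upstream start, known as promoter 1B. The median of all windows was 11, and 94.0% of them held at least 1 CG. By a GC content above 50% and an observed over expected CG ratio above 0.6, 7 of the 9 member windows were CpG-rich. Of all windows 44.9% were. The exceptions among the member windows were RASSF2 (ratio 0.361) and the upstream RUNX3 start (0.459). By gene, 6 of the 7 with a window had a CpG-rich one at any start. Of 10104 genes whose RNA was tested, 75.9% were CpG-rich in their first listed window, so these shares by gene are unlike measures. The RASSF2 start used here lies 8461 bases and the RASSF1 start 3386 bases inside the annotated gene, so these windows do not cover the outermost start. The plot of CG counts places each window among all of them.

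**Figure D1:**
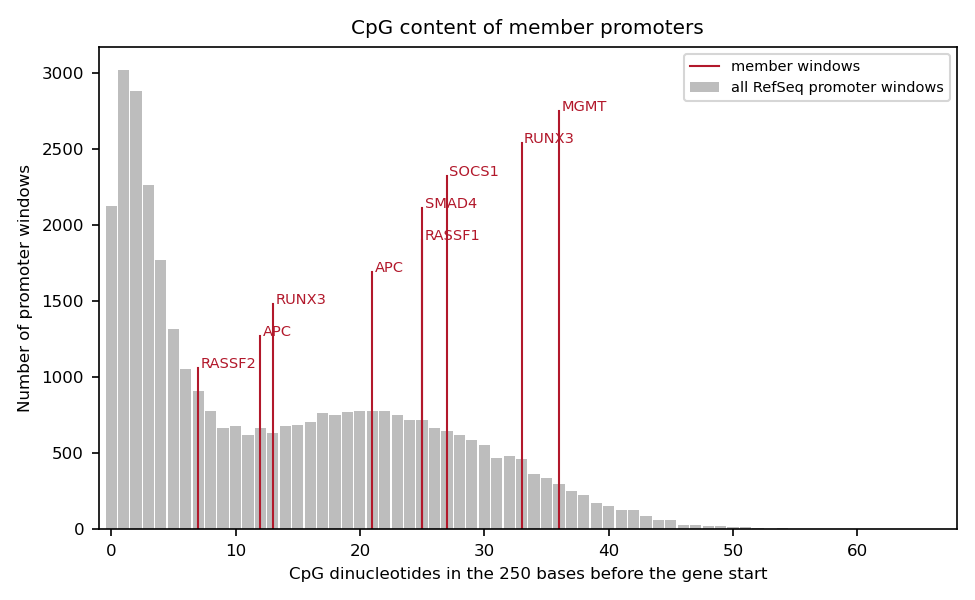
Number of RefSeq promoter windows (y axis) by the number of CG dinucleotides in the 250 bases before the gene start (x axis); grey bars are all windows and each red line is a window of a named gene, with line heights chosen for legibility. The red lines run from 7 CG (RASSF2) to 36 CG (MGMT), and the median of all windows was 11.

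Each array gave a signal in arbitrary units for each probe set, which the authors had scaled so that the trimmed mean of each array was 100.01. No detection calls were used here, so background was read from 107 probe sets of 82 olfactory receptor genes, which colon cells do not normally express. Their 95th percentile was 21.35 and 21.85 on the TET1 siRNA arrays and 21.53 and 23.18 on the control siRNA arrays, and 42.2% to 42.6% of all probe sets lay above it. The TET1 transcript was lower on both arrays of the knockdown. Its brighter probe set gave 14.6 and 15.0 with TET1 siRNA, at background, against 58.1 and 59.6 with control siRNA, at least 2.72-fold lower (limma adjusted p = 0.00127). This bound sets the control mean against the background level. The other, 214862_x_at, read 6.0 and 8.9 with TET1 siRNA, below background, against 18.2 and 35.5 with control siRNA, above background on 1 array. It did not pass (log2 difference -0.84, limma adjusted p = 0.0509). Its control mean on the log scale, which includes 18.2 below background, was 1.18-fold the background level of the TET1 siRNA arrays. Of 10 colorectal epithelial markers, EPCAM, KRT8, KRT18 and KRT19 were above background on both control siRNA arrays, and KRT20, CDX1, CDX2, VIL1, CEACAM5 and LGALS4 were not. Their summed signal was 19030 to 19177 with TET1 siRNA and 16621 to 17104 with control siRNA. Among fibroblast, lymphocyte, endothelial and hepatocyte markers, 3 of 29 were above background with control siRNA (COL1A1, CD79A and SERPINA1, named after their values were seen). The epithelial KRT8 (log2 difference 0.32, adjusted p = 0.00887) and the fibroblast gene COL1A1 (0.47, adjusted p = 0.0242) passed as higher, tested with 1 probe set per gene. The 8 fibroblast markers summed to 397.5 to 511.0 with TET1 siRNA and 325.5 to 358.7 with control siRNA. Most of this sum was COL1A1, at 337.4 and 451.9 with TET1 siRNA against 296.2 and 258.9 with control siRNA. COL1A1 was called in 1 of its 3 tested probe sets. COL1A2 and DCN, named after their values were seen, had -0.20 and -0.10 and did not pass. The remaining fibroblast markers fell below the filter. The part of all these markers in the results below was not tested.

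Transcripts of 8 of the 9 genes were above background in HCT116. On both control siRNA arrays 14 of the 25 probe sets exceeded the background level, and on both TET1 siRNA arrays 15 did, in the same 8 genes. TIMP2 had signals of 114.5 to 1001.1 over its 3 probe sets. The brightest probe sets of SMAD4 and APC had means of 395.8 and 144.8 with control siRNA. RASSF2, RASSF1 and MGMT had control means of 136.85, 80.95 and 78.8, the brighter RUNX3 probe sets had 71.8 and 66.25, and SOCS1 had 40.05 in its only probe set above background. GATA5 was at background in both its probe sets on every array. These are levels of different probe sets, which bind with different strength, so they give no order of transcript abundance. At the 99th percentile of the olfactory receptors (52.5 to 52.8) SOCS1 no longer counted as above background and 10 probe sets did. The plot of signals by array shows all 25.

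**Figure D2:**
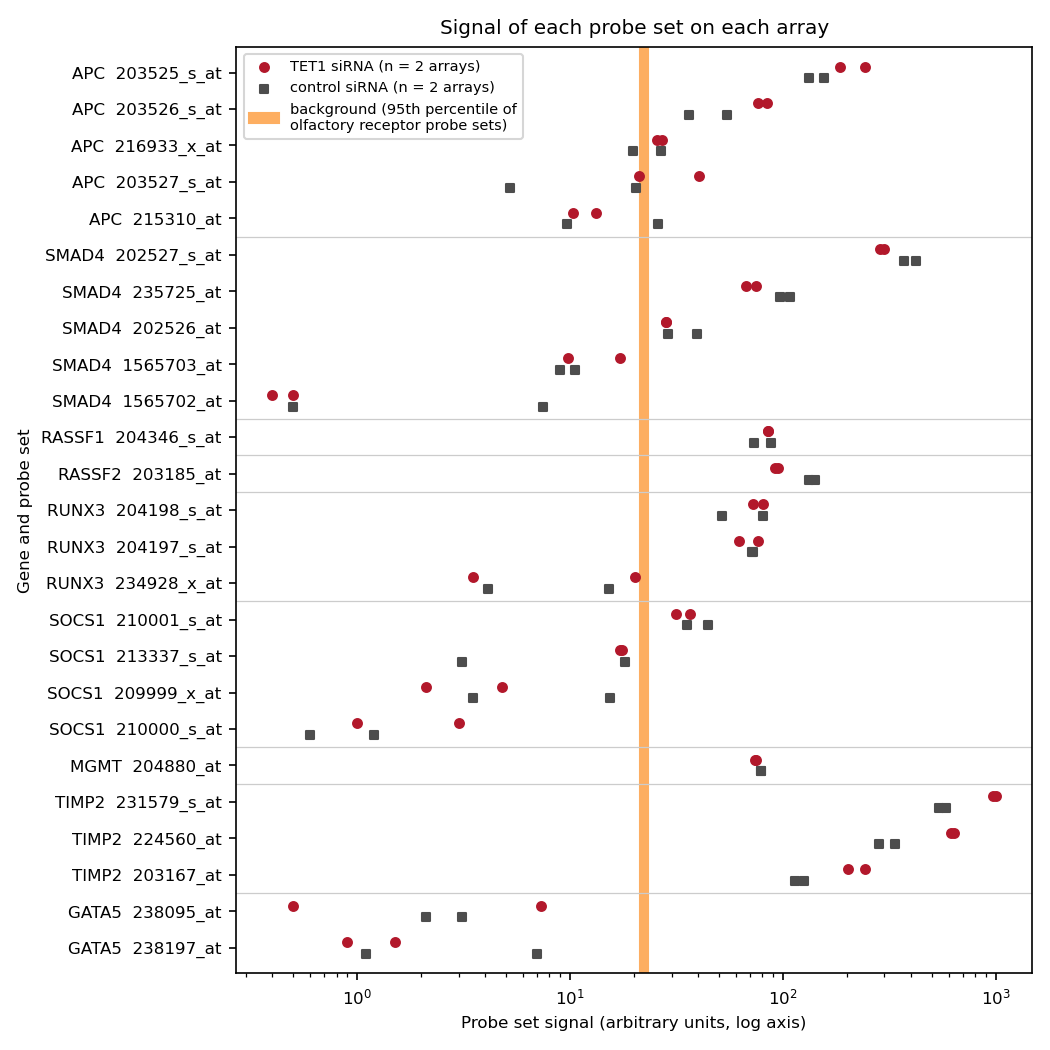
Signal of each probe set (x axis, arbitrary units, log axis) on the TET1 siRNA arrays (red circles) and the control siRNA arrays (grey squares), 1 point per array and 2 arrays per group; the orange band is the background level over the 4 arrays. The red circles of TIMP2 lie to the right of its squares in all 3 probe sets, SMAD4 and RASSF2 circles lie to the left in the bright probe sets, and GATA5 lies below the band throughout.

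The groups were compared with limma on log2(signal + 16), and p-values were adjusted over all 27306 probe sets above the median of mean log2 signal. Of the 25 probe sets, 18 passed that filter, in 8 genes, and 7 did not (2 of SMAD4, 2 of SOCS1, 1 of RUNX3 and both of GATA5). Of the 18, 5 were higher and 2 lower at adjusted p below 0.05, and 11 did not pass. Over all tested probe sets 16.1% were called, 7.76% as higher and 8.31% as lower. The 5 higher ones were 3 of TIMP2 and 2 of APC, and the 2 lower ones were SMAD4 and RASSF2. Probe sets of a gene read the same RNA and are not replicates, so calls were also counted by gene. With 1 probe set per gene, that of highest mean signal, 4 of 8 tested genes were called, 2 higher (11.2% of all tested genes) and 2 lower (10.6%), with 21.9% called in all. The median log2 difference of the 18 probe sets was 0.09, against -0.01 over all tested. In 11 of the 18 both arrays of a group lay above both of the other, as in 56.1% of all tested probe sets. Where a lack of overlap is given below, it describes the arrays and adds no test to the calls. With 2 against 2 arrays the smallest p of an exact permutation test is 0.333, so the calls rest on limma's model. The 95% interval of each difference is drawn in the plot of differences.

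**Figure D3:**
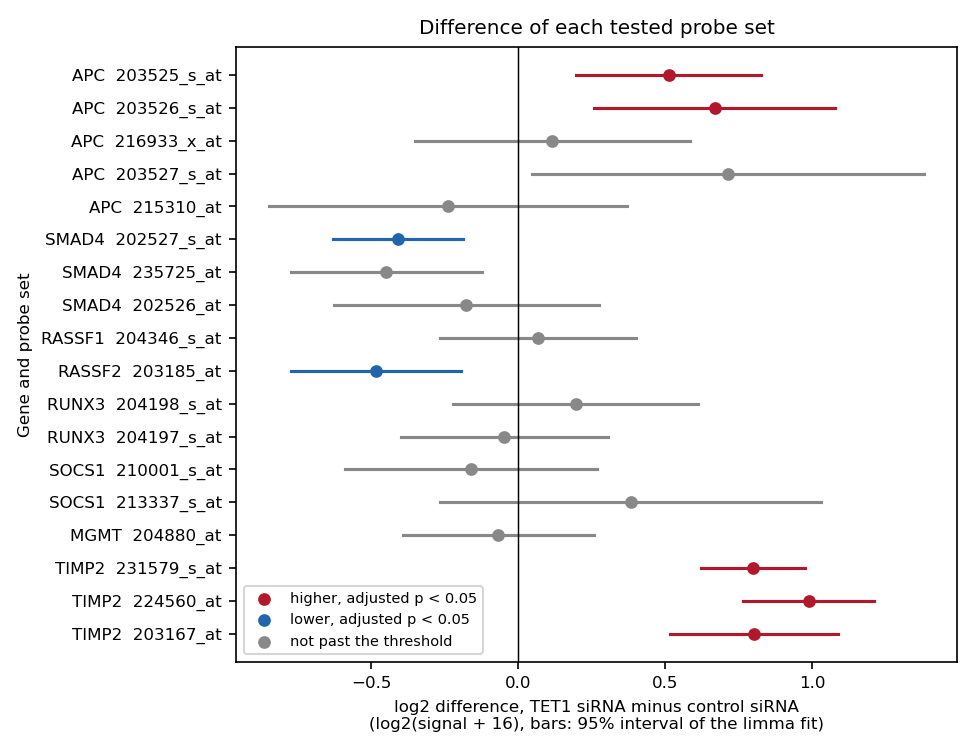
Log2 difference, TET1 siRNA minus control siRNA, on the log2(signal + 16) scale (x axis) for the 18 tested probe sets; points are the fitted differences of 2 against 2 arrays and bars their 95% interval. The 3 TIMP2 probe sets sit at 0.80 to 0.99, APC spans -0.24 to 0.71, and SMAD4 and RASSF2 lie below 0.

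TIMP2 rose in every one of its probe sets. In bulk RNA, more transcript per cell and more cells with the transcript cannot be told apart. It encodes a secreted inhibitor of matrix metalloproteinases that also takes part in the activation of MMP2 at the cell surface. The brightest, 231579_s_at, read 1001.1 and 973.5 with TET1 siRNA, against 584.3 and 539.4 with control siRNA. The probe set 224560_at read 613.4 and 637.8 with TET1 siRNA, against 335.8 and 281.8 with control siRNA. The third, 203167_at, read 242.7 and 201.6 with TET1 siRNA, against 114.5 and 126.0 with control siRNA. In all 3 both knockdown arrays lay above both control arrays. Groups without overlap were also found in 56.1% of all tested probe sets. By plain signals the rise was 1.76-fold, 2.03-fold and 1.85-fold in this order. The log2 differences were 0.80 (SE 0.080, limma adjusted p = 1.29e-04), 0.99 (SE 0.10, adjusted p = 1.37e-04) and 0.80 (SE 0.13, adjusted p = 0.00193). The 95% intervals, 0.62 to 0.97, 0.76 to 1.21 and 0.52 to 1.09, overlap one another. Of all tested probe sets, 0.432% rose by more than 224560_at. The call held in each moderated alternative tried for the 2 brighter probe sets, and for 203167_at in all but the fit without a variance trend (adjusted p = 0.0515).

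Of 10 other tissue inhibitors, metalloproteinases and related genes tested with 1 probe set per gene, 0 passed in limma (3 at unadjusted p below 0.05), and the median log2 difference was 0.07, against 0.01 for all genes tested. TIMP1, a paralogue, read 2601.7 ± 68.4 with TET1 siRNA and 2756.5 ± 232 with control siRNA (SD, n = 2 each), a log2 difference of -0.08 (adjusted p = 0.484). TIMP3, another paralogue prone to methylation, had 0.53 (adjusted p = 0.0817), while 1 of its 4 tested probe sets was called as higher in the test of each probe set. MMP14, the membrane protease that activates MMP2 together with TIMP2, had 0.04 (adjusted p = 0.933), and MMP2 averaged 6.95 with TET1 siRNA and 16.8 with control siRNA, below background. All 4 were chosen for naming once their values were known. Of the list's 19 genes, 10 were above background with control siRNA. By distance between the centred log2 values of the 4 arrays, the genes most like TIMP2 (224560_at) were GCLM (0.031), UBR1 (0.073) and KCNK9 (0.077), with log2 differences of 0.99, 1.04 and 1.05.

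APC rose in its 2 bright probe sets, and its 3 dim ones did not pass. The brightest, 203525_s_at, read 186.3 and 242.1 with TET1 siRNA, against 156.8 and 132.8 with control siRNA. The next, 203526_s_at, read 84.0 and 76.7 with TET1 siRNA, against 54.4 and 36.2 with control siRNA. Neither overlapped between the groups, as in 56.1% of all tested probe sets. The rises were 1.48-fold and 1.77-fold by plain signals, with log2 differences of 0.51 (SE 0.14, limma adjusted p = 0.0332) and 0.67 (SE 0.19, adjusted p = 0.0326). The other 3 lay near background. The probe set 203527_s_at read 40.2 and 21.0 with TET1 siRNA, above background on 1 array, against 5.2 and 20.5 with control siRNA, below background. Its TET1 siRNA mean on the log scale, which includes 21.0 below background, was 1.30-fold the background level of the control arrays. The difference did not pass (log2 difference 0.71, limma adjusted p = 0.142). The probe sets 216933_x_at and 215310_at had 0.12 (adjusted p = 0.777) and -0.24 (adjusted p = 0.628), with overlapping groups. With the mean of all 5 the APC difference was 0.35 (adjusted p = 0.0847). Left out, control siRNA replicate 2 ended both calls (0.40, adjusted p = 0.169, and 0.45, adjusted p = 0.181), and so did TET1 siRNA replicate 2 (0.34, adjusted p = 0.233, and 0.72, adjusted p = 0.079). Without TET1 siRNA replicate 1 the call of 203526_s_at was lost (0.61, adjusted p = 0.140).

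Beside APC, 2 ubiquitin ligase subunits that recognise marked beta-catenin rose, and most other genes listed with the Wnt destruction complex did not pass. The list also holds the Dishevelled genes DVL1, DVL2 and DVL3, which relay the Wnt signal. Of 12 other genes tested with 1 probe set per gene, 2 rose, 1 fell and 9 did not pass (median log2 difference 0.01). Over all genes tested in this way 21.9% were called. BTRC read 199.8 and 217.4 with TET1 siRNA, against 140.2 and 134.8 with control siRNA (log2 difference 0.55, limma adjusted p = 0.00606), and 2 of its 3 tested probe sets passed by themselves. FBXW11 read 609.0 and 605.1 with TET1 siRNA, against 457.9 and 441.1 with control siRNA (0.42, adjusted p = 0.00377), in 1 of 2 probe sets. The groups did not overlap in either gene, as in 56.1% of all tested probe sets. Both were named because they passed, so this adds no support. DVL3, a Dishevelled protein that relays the Wnt signal, fell to 57.3 ± 5.80 with TET1 siRNA, against 93.6 ± 1.56 with control siRNA (SD, n = 2 each, log2 difference -0.58, adjusted p = 0.0198). AXIN2, a scaffold of the complex and a Wnt target, had -0.19 (adjusted p = 0.406), and CTNNB1, the beta-catenin gene, which is mutated in HCT116, had 0.03 (adjusted p = 0.850), while 1 of its 3 tested probe sets passed by itself as lower. AXIN2 and CTNNB1 were named after their values were seen.

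SMAD4 was lower in its brightest probe set. It is the shared partner of the receptor-activated SMADs. The probe set 202527_s_at read 286.7 and 299.8 with TET1 siRNA, against 420.6 and 370.9 with control siRNA, with no overlap. It fell by 0.41 on the log2 scale (SE 0.10, limma adjusted p = 0.0178), and 25.9% by plain signals. The probe set 235725_at read 67.4 and 74.7 with TET1 siRNA, against 97.2 and 108.5 with control siRNA, and missed the threshold (log2 difference -0.45, adjusted p = 0.0632). The dimmer 202526_at read 28.1 on both knockdown arrays, against 28.8 and 39.5 with control siRNA (-0.18, adjusted p = 0.628). All 3 had the same direction and no overlap, and 56.1% of all tested probe sets had no overlap either. The probe sets 1565703_at and 1565702_at were below background and not tested. With the mean of all 5 probe sets the difference was -0.22 (adjusted p = 0.273). The call was also lost without control siRNA replicate 1 (-0.32, adjusted p = 0.114) and without TET1 siRNA replicate 1 (-0.38, adjusted p = 0.0824).

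Of 17 other SMAD and TGF-beta receptor genes tested with 1 probe set per gene, 2 rose, 4 fell and 11 did not pass (median -0.06). Among those 11, 3 of 6 tested probe sets of SMAD2, 2 of 5 of SMAD5 and 1 of 2 of ACVR2A passed by themselves, all as lower, while the probe set used for the gene had log2 differences of 0.13, -0.01 and -0.06. SMAD9, an SMAD activated by BMP receptors, read 98.3 and 95.7 with TET1 siRNA, against 216.7 and 168.6 with control siRNA (log2 difference -0.88, limma adjusted p = 0.00117). SMAD1, of the same branch, had -0.35 (adjusted p = 0.0494), but neither of its 2 probe sets passed by itself. SKI, a corepressor of SMAD complexes, had -0.52 (adjusted p = 0.0143) and TRIM33, a ubiquitin ligase that acts on SMAD4, -0.37 (adjusted p = 0.0133). The rises were TGFBR1 (0.42, adjusted p = 0.00791) and TGFBR2 (0.29, adjusted p = 0.0347), the type I and type II receptors of TGF-beta. SKI was called in 1 of 3 tested probe sets, TRIM33 in 1 of 3, and TGFBR1 and TGFBR2 in 1 of 2 each. SMAD1, SMAD2, SMAD5, ACVR2A, TRIM33 and TGFBR2 were named after their values were seen. The plot of pathway partners gives each list gene.

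**Figure D4:**
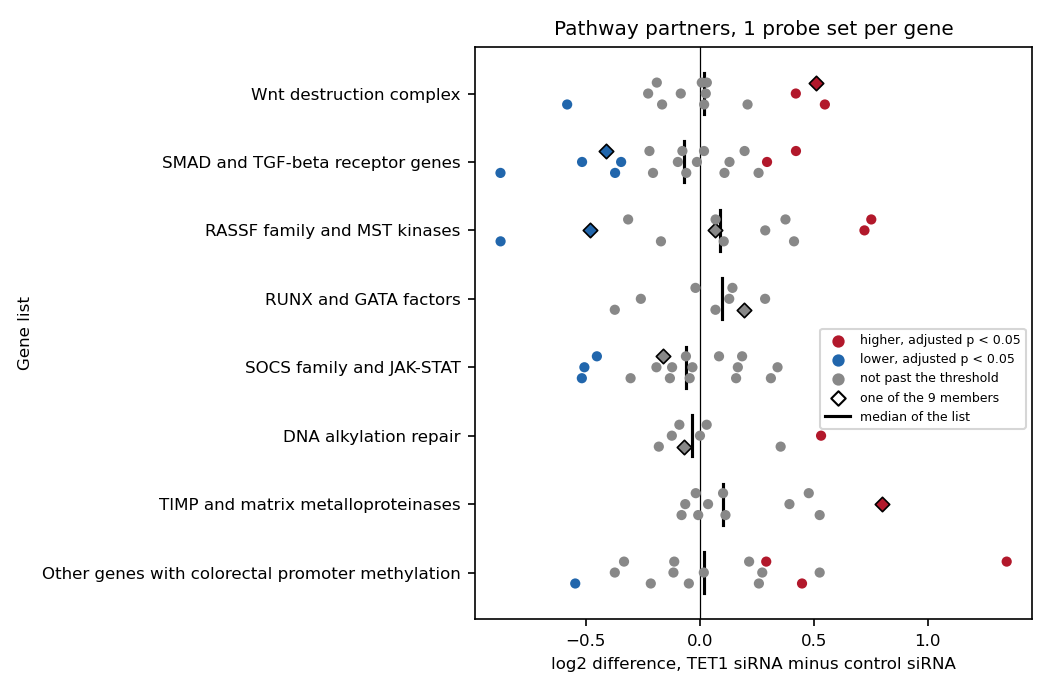
Log2 difference, TET1 siRNA minus control siRNA (x axis), of each tested gene in 8 lists of pathway partners (rows), with 1 probe set per gene; diamonds are the named tumour suppressors, circles the other genes, vertical offsets within a row only separate points, and black bars are list medians. The list medians, which here include the named tumour suppressors, lie between -0.07 and 0.10, and the TIMP2 diamond stands at 0.80. Medians in the text are of the other genes only.

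RASSF2 was lower and RASSF1 did not pass. Both are known to be silenced in tumours by promoter methylation. RASSF2, with 1 probe set, read 94.6 and 91.9 with TET1 siRNA, against 132.6 and 141.1 with control siRNA, with no overlap. It fell by 0.48 on the log2 scale (SE 0.13, limma adjusted p = 0.0284), and 31.9% by plain signals. The call was lost whichever array was left out, with log2 differences of -0.52 and -0.44 without control siRNA replicates 1 and 2 and of -0.50 and -0.47 without TET1 siRNA replicates 1 and 2 (adjusted p 0.071 to 0.130). RASSF1, with 1 probe set, read 85.0 and 85.5 with TET1 siRNA, against 73.5 and 88.4 with control siRNA. The control arrays enclosed the knockdown arrays, and the difference was 0.07 (95% interval -0.27 to 0.40, adjusted p = 0.825). The probe set is tied to the gene as a whole, so the isoform known to be silenced, RASSF1A, was not told apart.

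In the rest of the RASSF family and its MST kinase partners changes went both ways. Of 10 others tested with 1 probe set per gene, 2 rose, 1 fell and 7 did not pass (median 0.20, over all genes 0.01). STK3, the kinase MST2 of the Hippo pathway, read 1020.5 and 945.8 with TET1 siRNA, against 611.6 and 544.1 with control siRNA (log2 difference 0.75, limma adjusted p = 1.27e-04), in 1 of its 2 probe sets. RASSF5, which binds the kinase MST1, read 74.2 and 91.4 with TET1 siRNA, against 47.7 and 39.9 with control siRNA (0.72, adjusted p = 0.0123), in both its probe sets. RASSF8 fell to 77.8 and 62.2 with TET1 siRNA, against 145.1 and 137.1 with control siRNA (-0.87, adjusted p = 0.00156), in 2 of 3 tested probe sets. The groups did not overlap in any of the 3, as in 56.1% of all tested probe sets. The 3 were named because they passed, so this adds no support.

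RUNX3 did not pass in either tested probe set. The gene encodes a Runt-domain transcription factor linked to TGF-beta signalling. In 204198_s_at it read 80.8 and 72.7 with TET1 siRNA, against 51.8 and 80.7 with control siRNA. In 204197_s_at it read 76.2 and 62.3 with TET1 siRNA, against 71.6 and 72.0 with control siRNA. The groups overlapped in both, with log2 differences of 0.19 (95% interval -0.22 to 0.61, limma adjusted p = 0.554) and -0.05 (-0.40 to 0.31, adjusted p = 0.885). Of 7 other RUNX and GATA factors and cofactors tested with 1 probe set per gene, 0 passed in limma (0 at unadjusted p below 0.05, median 0.07). CBFB, the partner that all RUNX proteins share, had 0.07 (adjusted p = 0.522) and was named after its value was seen.

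SOCS1, a feedback inhibitor of cytokine signalling, was near background. Its 210001_s_at read 36.7 and 31.4 with TET1 siRNA, against 44.6 and 35.5 with control siRNA, with overlapping groups (log2 difference -0.16, 95% interval -0.59 to 0.27, limma adjusted p = 0.646). The probe set 213337_s_at read 17.1 and 17.5 with TET1 siRNA, against 18.2 and 3.1 with control siRNA, all below background (0.38, adjusted p = 0.439). The 2 untested probe sets had signals of 0.6 to 15.4. In the wider SOCS and JAK-STAT list 3 of 16 other genes fell, 0 rose (1 at unadjusted p below 0.05 in limma) and 13 did not pass with 1 probe set per gene (median -0.05). STAT3, a transcription factor that SOCS proteins restrain, read 433.8 and 484.2 with TET1 siRNA, against 591.4 and 677.3 with control siRNA (-0.45, adjusted p = 0.00615), in 2 of 3 tested probe sets. SOCS7 had -0.52 (adjusted p = 0.00625), in 2 of 3. SOCS3 had -0.51 (adjusted p = 0.0432), and neither of its 2 tested probe sets passed by itself.

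MGMT gave nearly the same signal on all arrays. It read 74.9 and 74.0 with TET1 siRNA, against 78.9 and 78.7 with control siRNA. The groups did not overlap, yet the difference was small, -0.07 on the log2 scale (95% interval -0.39 to 0.26, limma adjusted p = 0.817). That interval spans 0.762-fold to 1.20-fold on the signal + 16 scale. Among 7 other genes of DNA alkylation repair 1 rose, 0 fell (0 at unadjusted p below 0.05 in limma) and 6 did not pass with 1 probe set per gene (median 0.00017). ALKBH3, a dioxygenase that reverses alkylation damage, read 214.9 and 243.8 with TET1 siRNA, against 159.7 and 147.4 with control siRNA (0.53, adjusted p = 0.00766). It has 1 probe set, in which the groups did not overlap.

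GATA5, an endodermal transcription factor, was not above background on any array. Its 238095_at read 0.5 and 7.3 with TET1 siRNA, against 3.1 and 2.1 with control siRNA. Its 238197_at read 1.5 and 0.9 with TET1 siRNA, against 7.0 and 1.1 with control siRNA. The groups overlapped in both, and no fold change is given. The paralogue GATA6, named after its values were seen, averaged 222.4 with TET1 siRNA and 202.9 with control siRNA (log2 difference 0.13, limma adjusted p = 0.501).

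By CG content of these windows, MGMT (36 CG), RUNX3 (33 and 13 CG), SOCS1 (27 CG) and RASSF1 (25 CG) did not pass. SMAD4 (25 CG) and RASSF2 (7 CG) fell, and APC (21 and 12 CG) rose. The RASSF1 and RASSF2 windows lie inside the annotated gene, so the CG content at their outermost starts is not given. TIMP2 and GATA5 had no window. For all genes tested with 1 probe set per gene, each gene was classed by its first listed window. Of the 7668 CpG-rich there, 23.4% were called (11.8% higher, 11.6% lower). Of the 2436 others with a window 19.6% were called (10.8% higher, 8.83% lower). The median log2 differences were 0.0092 and 0.019 in this order. What lies behind the difference in shares was not tested. The plot of members among all probe sets places each difference among those of probe sets with a like signal.

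**Figure D5:**
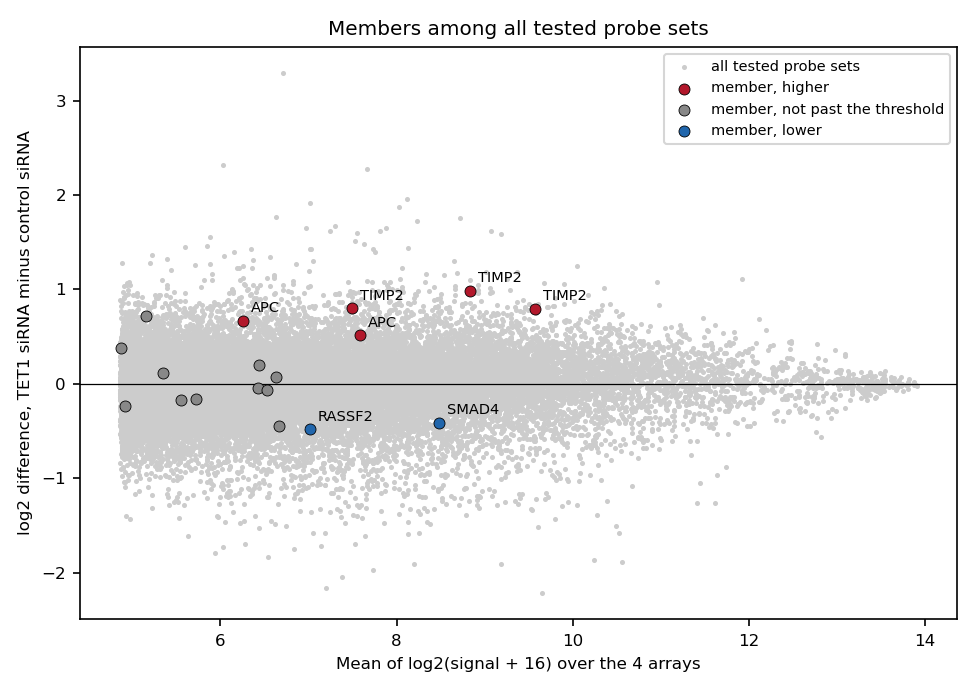
Log2 difference, TET1 siRNA minus control siRNA (y axis), against mean log2(signal + 16) over the 4 arrays (x axis) for all 27306 tested probe sets (grey) and the 18 of the named genes (red higher, blue lower, dark grey not past the threshold). The 3 TIMP2 points stand towards the upper edge of the grey cloud, and SMAD4, RASSF2 and APC lie within it.

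Other genes known for promoter methylation in colorectal tumours gave calls in both directions. Of 33 listed, 29 were on the array, 13 were above background with control siRNA and 15 were tested with 1 probe set per gene. On each array 42.2% to 42.6% of all probe sets were above background, a share of probe sets and not of genes. Of those 15, 3 rose, 1 fell and 11 did not pass (median 0.02). Over all genes tested in this way 21.9% were called. THBS1 (thrombospondin), an inhibitor of angiogenesis, read 139.7 and 131.0 with TET1 siRNA, against 49.1 and 38.4 with control siRNA (log2 difference 1.35, limma adjusted p = 1.55e-04), in all 3 tested probe sets. VIM (vimentin) had 0.45 (adjusted p = 0.0326) in its only tested probe set. CDKN2A, the cell cycle inhibitor locus, had -0.55 (adjusted p = 0.0146), in 1 of 2 tested probe sets. The third rise was HLTF, a chromatin remodeller, at 0.29 (adjusted p = 0.0113), named after its value was seen.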

How the data were processed

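RNA of 4 HCT116 samples was measured on 1 Affymetrix array each. The authors deposited intensities, a linear value for each probe set; trimmed by 2% at both ends, the means of the 4 arrays are equal, so the intensities had been scaled. Software and background step were not given in the sources used here. Per the labels' protocols cDNA was primed with oligo(dT), so intensities come mainly from 3′ ends. After such scaling a change in total RNA cannot be seen.

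Groups came from the siRNA in the labels. Of 54675 probe sets, 62 controls were left out. The annotation gave 1 symbol for 41091 probe sets, several for 1801 (none of them naming one of the 9 genes) and none for 11721, and list genes were matched through gene identifiers. Intensities were taken as log2(signal + 16), which understates changes of dim genes, and the 27306 probe sets with a mean above the median (4.86, a signal of 13.1) were tested with limma 3.58.1 in R 4.3.3 (eBayes with a variance trend, two-sided, Benjamini-Hochberg adjustment, threshold 0.05). Residual degrees of freedom were 2, to which the prior added 8.73. The main test ran on each probe set; pathway lists were described with 1 probe set per gene (12389 genes tested). List genes were named by rule: up to 3 past the threshold per list, by size of change, and the 3 genes nearest to the TIMP2 probe set over the 4 arrays. Alternatives were other pseudocounts, normalizations, variance models, filters and choices of probe set, a replicate block and leaving out each array. The fit was checked on simulated data drawn from its own variance model, so this is no test of that model. The 9 genes and the lists were chosen with earlier results of these data known, so no list was tested. The number of arrays limits the precision. Pearson's r of log2 values, across 27306 probe sets that are not independent replicates, was 0.989 and 0.988 within TET1 siRNA and control siRNA and 0.974 to 0.976 between them.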

Additional observations from a re-analysis of the deposited data

How the results depend on the processing

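With 2 arrays per group the calls of APC, SMAD4 and RASSF2 depend on how the variance is modelled, on the filter and on single arrays, while those of TIMP2 depend mainly on sharing variance between probe sets. Probe sets of the 9 genes called higher and lower numbered 2 and 0 without trend, 3 and 0 unfiltered, 4 and 3 with the filter at the upper quartile, 2 and 2 with 1 probe set per gene, 1 and 1 when a gene's probe sets were averaged, and 2 and 1 when _x_at and _s_at types were left out. In limma without moderation they were 0 and 0, with 7 at unadjusted p below 0.05. Over the whole array the counts higher and lower were 298 and 541 without trend, 1098 and 1204 unfiltered, 1393 and 1316 with 1 probe set per gene, 772 and 892 when averaged by gene, 1104 and 1248 when _x_at and _s_at types were left out, and 0 and 0 without moderation (5135 at unadjusted p below 0.05, lowest adjusted p 0.113), where only 2 residual degrees of freedom remain. Leaving out 1 array, with the lone array assumed to vary like the other group, gave 3 to 5 probe sets of the 9 genes higher and 0 to 1 lower, and 1257 to 1646 higher and 1421 to 1630 lower over all probe sets. Pseudocounts of 1 and 64, quantile normalization and median centring kept 5 higher and 2 lower. Over the whole array these 4 gave 2041 and 2183, 2164 and 2328, 2117 and 2155, and 2269 and 1813, against 2119 and 2268 as reported. The cause of these shifts was not tested.

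Single probe sets of the 9 genes and of TET1 gave 271 values under 16 alternatives. Of these, 231 kept direction and side of the threshold, 30 fell short of it, 4 newly passed and 6 changed sign. Of the 4 that newly passed, 3 were of TET1 214862_x_at and 1 of SMAD4 235725_at. The sign changes were in probe sets that were not called. Over the fits without 1 array, APC 216933_x_at ran from -0.017 (without control siRNA replicate 1) to 0.25, APC 215310_at from -0.59 to 0.11 (without control siRNA replicate 1), RASSF1 from -0.044 (without control siRNA replicate 1) to 0.18, RUNX3 204198_s_at from -0.062 (without control siRNA replicate 1) to 0.45, RUNX3 204197_s_at from -0.17 to 0.071 (without TET1 siRNA replicate 2) and SOCS1 213337_s_at from -0.039 (without control siRNA replicate 2) to 0.80. With the replicate number as a block, 5 probe sets of the 9 genes were higher and 2 lower, and 2151 and 2327 over all. The labels do not say what same-numbered arrays share. Their deviations had a correlation of 0.0066, which does not settle whether the arrays were paired. Background set at the 99th percentile of olfactory receptors or at the array median gave 10 and 15 probe sets above it in place of 14.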
